A study of Mus musculus with 8 samples.

Results

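Beta oxidation, the stepwise breakdown of fatty acids in mitochondria and peroxisomes, was followed through 38 genes in the liver and the epididymal fat pad (epididymal white adipose tissue, eWAT) of fasted mice labelled Crtc1-/- or Crtc1+/+. The genes were matched by symbol in the deposited count table and made up 38 of its 19348 genes. They were divided by the site of the enzyme into 19 mitochondrial genes, 12 peroxisomal genes and 7 genes whose products act at both or other sites, and by role into 8 groups. Every one of the 38 was found and passed the filter on low counts in both tissues. RNA-seq had been carried out on total RNA of 8 libraries, 2 for each tissue and labelled genotype. All mice were C57BL/6 males aged 12 weeks, kept on a normal diet and fasted for 16 h before sacrifice, so both genotypes shared the fast. The Crtc1-/- line carried a CRISPR/Cas9 deletion of Crtc1, a coactivator of the transcription factor CREB, in the whole body, and Crtc1+/+ littermates were the controls. Libraries labelled Crtc1+/+ are called controls. Each library is named by tissue, labelled genotype and replicate, and paired values are always given for replicate 1 and then replicate 2. The study's methods describe 2 mice of each genotype from which liver and eWAT were taken, and the sources do not state whether the same number marks the same mouse in both tissues.

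Long-chain fatty acids are first activated to acyl-CoA and enter mitochondria through the carnitine shuttle, where repeated rounds of dehydrogenation, hydration, a further oxidation and thiolysis release acetyl-CoA. Auxiliary enzymes rearrange the double bonds of unsaturated chains, and electrons from the acyl-CoA dehydrogenases pass through the electron transfer flavoprotein to the respiratory chain. Peroxisomes shorten very-long-chain and branched chains with their own oxidases, bifunctional enzymes and thiolases, and hand the products on as carnitine esters. Liver oxidizes fatty acids heavily in fasting, while white adipocytes mainly store and release them.

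The libraries held 16560070 to 19721464 counts, at which 3 counts correspond to 0.152 to 0.181 CPM (counts scaled to library size). Crtc1 itself was at 32.6 and 33.7 CPM in control eWAT and 58.5 and 33.6 CPM in the eWAT libraries labelled Crtc1-/-. In liver it was at 11.7 and 9.86 against 22.1 and 18.0 CPM. The mean of the libraries labelled Crtc1-/- was thus not below that of the controls in either tissue, and every genotype below is a label. Since counts were summed over each gene, reads from the deleted exons were not analysed separately here. Among the eWAT libraries, the make-up of the tissue moved with the labelled genotype. A list of 20 epididymis markers held 9.13% and 10.5% of the counts in control eWAT and 0.00256% and 0.00132% in eWAT labelled Crtc1-/-. A list of 15 adipocyte markers held 0.280% and 0.491% against 4.52% and 2.22%, 5 endothelial markers 0.0236% and 0.0244% against 0.322% and 0.177%, and 6 macrophage markers 0.0307% and 0.0153% against 0.111% and 0.0472%. The median hepatocyte marker stood at 52.1% of its liver level in replicate 2 of eWAT labelled Crtc1-/- (range 37.5% to 81.2% over 15 markers), and at 0.419% to 3.51% in the other eWAT libraries. That replicate is therefore shown apart throughout. In whole tissue, fewer cells of a type and less RNA per cell cannot be told apart, and the labelled genotype and the tissue make-up of the eWAT libraries cannot be told apart either.

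Beta oxidation genes held 1.40% and 1.39% of the counts in control liver and 0.316% and 0.364% in control eWAT. Compared between the tissues within that label, with all 8 libraries on 1 scale, 33 of the 38 genes were lower in eWAT and 3 were higher by the quasi-likelihood test of edgeR (adjusted p under 0.05). Among the 15587 genes tested, 19.8% were lower in eWAT and 35.0% were higher. The median log2 fold change of the 38 genes was -3.27, against 0.61 for all genes tested. The 3 genes that were higher in eWAT were Acox3 (log2 fold change 2.38, SE 0.36), the peroxisomal oxidase of branched chains, and the synthetases Acsl3 (2.11, SE 0.60) and Acsl4 (1.75, SE 0.49). Without replicate 2 of eWAT, or either replicate of liver, labelled Crtc1+/+ only Acox3 was called higher. Only Cpt1b and Abcd2 did not pass the test, with log2 fold changes of -1.06 (SE 0.82) and -0.75 (SE 0.56). The largest differences were those of the peroxisomal thiolase Acaa1b (-7.33, SE 1.35), the branched-chain oxidase Acox2 (-6.95, SE 1.74) and the bifunctional enzyme Ehhadh (-6.32, SE 1.33).

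On the deposited FPKM scale, which corrects for transcript length and allows genes to be compared, the order of the genes differed between the tissues. In liver labelled Crtc1+/+ the highest mean was that of Acaa1b with 1625 FPKM, followed by the mitochondrial thiolase Acaa2 with 777 FPKM, the electron transfer flavoprotein subunit Etfb with 732 FPKM, the sterol carrier and thiolase gene Scp2 with 500.2 FPKM and Ehhadh with 398 FPKM. The replicates of Acaa2 (792 and 762 FPKM) and of Etfb (802 and 662 FPKM) overlapped, so these neighbours in the order did not differ beyond their spread. In eWAT labelled Crtc1+/+ Etfb led with 189 FPKM, ahead of Acsl1 with 133, Scp2 with 124, Acaa2 with 108 and Hadh with 92.5 FPKM. Their replicate values overlapped between neighbours (224 and 153 FPKM for Etfb, 96.9 and 169 for Acsl1, 103 and 144 for Scp2, 113 and 103 for Acaa2), except that both libraries of Hadh, at 91.4 and 93.6 FPKM, lay below both of Acaa2. At the low end in eWAT were Cpt1b, the muscle form of carnitine palmitoyltransferase, with 2.62 FPKM, Acox2 with 2.08 FPKM and the peroxisomal transporter Abcd2 with 1.96 FPKM.

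In eWAT, 35 of the 38 genes had a positive log2 fold change, labelled Crtc1-/- over Crtc1+/+, with a median of 1.56 against -0.05 for all 15391 genes tested. By the quasi-likelihood test of edgeR, 11 genes rose at an adjusted p under 0.05 and 1 fell, while 6.65% of all genes rose and 5.54% fell. The 11 that rose were Cpt2, Slc25a20, Crat, Acadvl, Acadl, Acadm, Acads, Echs1, Hadhb, Eci1 and Decr1, and the 1 that fell was Acox3. By site, 10 of the 19 mitochondrial genes rose and none fell, whereas 0 of the 12 peroxisomal genes rose and 1 fell. That split depended on the test. DESeq2 also called the peroxisomal genes Hsd17b4, Eci2, Abcd2, Ehhadh, Acox2, Acaa1a and Acaa1b higher. With all 8 libraries in 1 fit, Hsd17b4, Abcd2 and Acaa1b were called higher. Under library totals and upper-quartile scaling no peroxisomal gene was called higher. At the threshold of the study (an absolute log2 fold change over 1 with p under 0.01), 15 of the 38 were higher and 3 were lower, against 8.37% and 7.54% of all genes. Both libraries labelled Crtc1-/- lay above both labelled Crtc1+/+ for 26 genes and below them for 3, against 31.3% and 35.4% of all genes. With 2 libraries a group, p-values measure only the spread between these mice, and a permutation of 2 against 2 cannot give a p under 0.333. DESeq2 called 25 higher and 3 lower, in a fit that called 4620 of all 15391 genes, 2362 of them higher. With the replicate number as a block 0 genes in the whole table were called, and the median of the 38 genes was 1.39. Without replicate 1 or 2 of eWAT labelled Crtc1+/+ the median of the 38 genes was 1.62 or 1.65. Without replicate 1 or 2 labelled Crtc1-/- it was 1.79 or 0.93. In such fits the group left with 1 library adds nothing to the spread, so they cannot show which libraries the calls depended on. Scaling by library totals gave 6 higher and 3 lower, and upper-quartile scaling 8 higher and 3 lower, with medians for all genes of -0.35 and -0.25. Under scaling on adipocyte markers the median was -1.77, with 0 genes higher and 20 lower, Eci1 and Echs1 among them. The 11 genes that rose all had negative values there. That scaling lowered the whole table, with 13271 of 15391 genes called, 23 of them higher, and a median of -3.49. The 38 genes lay 1.72 above the median of all genes, against 1.61 in the main fit.

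**Figure D1:**
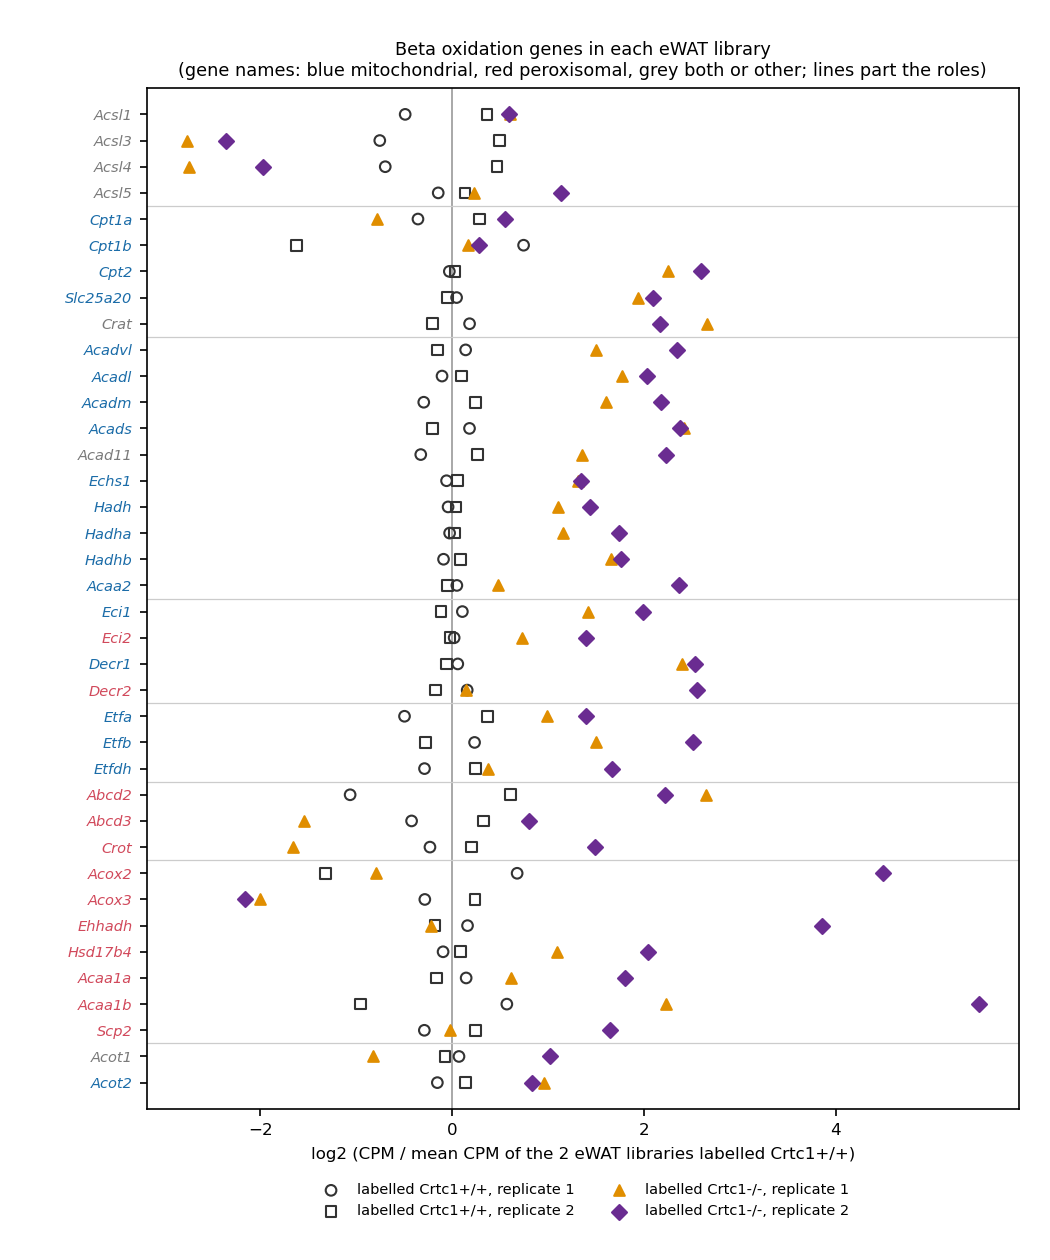
Level of each of the 38 genes in the 4 eWAT libraries, as log2 of CPM over the mean CPM of the 2 libraries labelled Crtc1+/+ (x axis), grouped by role. Triangles and diamonds are replicates 1 and 2 labelled Crtc1-/-. They lie together and to the right for Cpt2, Acadl, Acads, Hadhb and Decr1, and far apart for Acox2, Ehhadh, Crot and Acaa1b.

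The replicates labelled Crtc1-/- behaved differently for the mitochondrial and the peroxisomal genes. The 19 mitochondrial genes together held 0.153% of the counts in each eWAT library labelled Crtc1+/+, and 0.336% and 0.429% in those labelled Crtc1-/-. The 12 peroxisomal genes held 0.102% and 0.119% in control eWAT, 0.109% in replicate 1 labelled Crtc1-/- and 0.363% in replicate 2. Of the mitochondrial genes, 17 were above both controls in replicate 1 and 18 in replicate 2, and for 13 of the 19 both replicates lay within 1.5-fold of each other. Of the peroxisomal genes, 5 were above both controls in replicate 1 and 11 in replicate 2. For 8 of the 12, replicate 2 was more than 2-fold above replicate 1. These counts are a description, since no such shares of all genes are at hand for a single library. The difference between the sites was not tested.

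**Figure D2:**
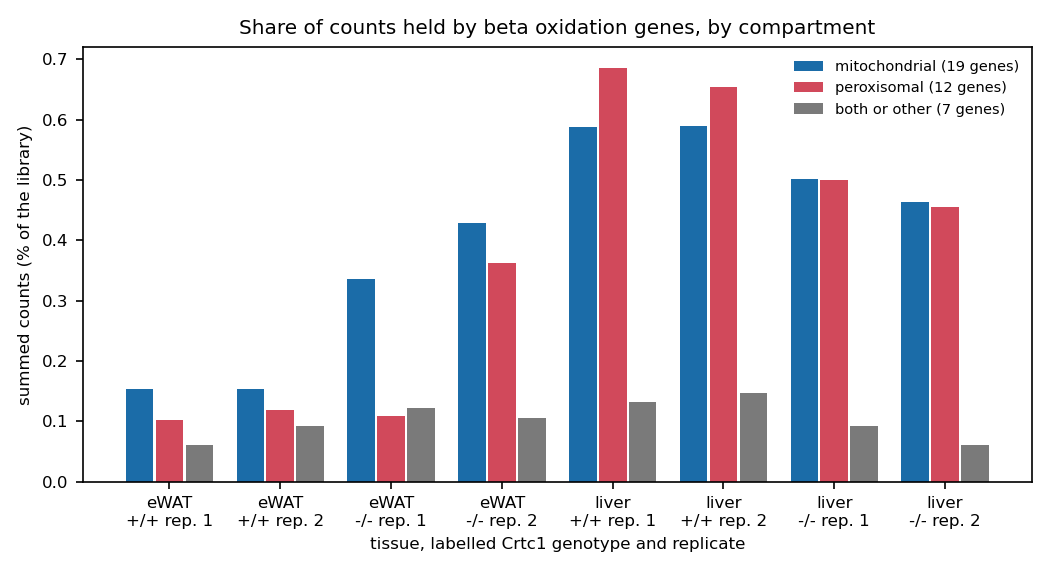
Summed counts of the mitochondrial, peroxisomal and other beta oxidation genes as a percentage of all counts (y axis) in each of the 8 libraries (x axis). In eWAT labelled Crtc1-/- the mitochondrial bars stand at 0.336% and 0.429%, while the peroxisomal bar is at 0.109% in replicate 1 and 0.363% in replicate 2.

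The 4 activation genes had a median log2 fold change of -0.85 in eWAT, the lowest of the 8 roles, and none passed the test. In what follows, values in parentheses are the log2 fold change, labelled Crtc1-/- over Crtc1+/+, with its standard error and the adjusted p of edgeR's quasi-likelihood test. Acsl1, the main acyl-CoA synthetase of adipocytes and hepatocytes, was at 314 and 568 CPM in control eWAT and 672 and 663 CPM in eWAT labelled Crtc1-/- (0.60, SE 0.43, adjusted p = 0.361). Acsl4, a synthetase that prefers arachidonate, was at 29.5 and 66.2 CPM against 7.15 and 12.2 CPM, with a log2 fold change of -2.31 (SE 0.55, adjusted p = 0.0597). Acsl3, a synthetase of the endoplasmic reticulum and lipid droplets that was singled out after its values were seen, was at 12.0 and 28.5 CPM against 2.97 and 3.96 CPM (-2.55, SE 0.58, adjusted p = 0.0535). The groups of both genes did not overlap, and neither passed the test. Both were called lower with library totals, with upper-quartile scaling, with DESeq2, with all 8 libraries in 1 fit and with the liver share subtracted. Both genes were at 1.34 to 14.6 CPM in the liver libraries. Acsl5 had a log2 fold change of 0.75 (SE 0.39, adjusted p = 0.241).

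Of the 5 carnitine shuttle genes, 3 rose. Cpt2, which turns acylcarnitine back into acyl-CoA inside the mitochondrion, was at 41.2 and 42.9 CPM in control eWAT and 199.9 and 255 CPM in eWAT labelled Crtc1-/-. Both libraries labelled Crtc1-/- were far above both controls, and the log2 fold change was 2.44 (SE 0.30, adjusted p = 0.0194). Slc25a20, the carrier that exchanges acylcarnitine for carnitine across the inner membrane, was at 42.9 and 40.2 CPM against 159 and 177 CPM (2.01, SE 0.27, adjusted p = 0.0214). Crat, the carnitine acetyltransferase of mitochondria and peroxisomes, was at 73.6 and 56.2 CPM against 409 and 292 CPM (2.43, SE 0.36, adjusted p = 0.0252). In none of these 3 genes did the groups overlap, and their smallest change without replicate 2 labelled Crtc1-/- was 1.90 (Slc25a20, adjusted p = 0.0189). The entry step itself gave another picture. Cpt1a, the malonyl-CoA-sensitive transferase of the outer membrane, was at 110.2 and 172 CPM against 82.2 and 206 CPM, so that the replicates labelled Crtc1-/- lay on opposite sides of the controls (0.03, SE 0.53, adjusted p = 0.973). Cpt1b was at 10.7 and 2.07 against 7.15 and 7.78 CPM (0.22, SE 0.83, adjusted p = 0.867). Skeletal muscle markers held 0.0535% and 0.0319% of the counts in these controls and 0.0990% and 0.0718% in the libraries labelled Crtc1-/-. Of these 7 markers only Acta1 was called (176 and 88.3 against 831 and 523 CPM), the median log2 fold change of the list was 0.19, and their part in the level of Cpt1b was not tested.

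All 10 genes of the mitochondrial spiral had positive log2 fold changes, from 1.28 to 2.39, and 6 of them rose. The acyl-CoA dehydrogenases, which carry out the first step on chains of different length, were at similar multiples of the controls. Acads, for short chains, was at 34.8 and 26.6 CPM in control eWAT and 164 and 159 CPM in eWAT labelled Crtc1-/- (2.39, SE 0.29, adjusted p = 0.0193). Acadl, for long chains, was at 49.4 and 56.9 against 182 and 217 CPM (1.91, SE 0.29, adjusted p = 0.0260). Acadm, for medium chains, was at 46.5 and 67.7 against 174 and 259 CPM (1.92, SE 0.37, adjusted p = 0.0394). Both libraries labelled Crtc1-/- exceeded both controls for each of these enzymes. Acadvl, for very long chains, was at 98.0 and 79.8 against 251 and 451 CPM (1.98, SE 0.41, adjusted p = 0.0454). Acad11, a further acyl-CoA dehydrogenase counted among the genes of both or other sites, was at 25.9 and 39.1 against 83.0 and 153 CPM but did not pass the test (1.86, SE 0.43, adjusted p = 0.0562). Without replicate 2 labelled Crtc1-/-, Acadm was no longer called (1.56, adjusted p = 0.0601).

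The later steps followed with smaller changes. Echs1, the short-chain enoyl-CoA hydratase, was at 76.0 and 82.3 CPM in control eWAT and 197 and 201 CPM in eWAT labelled Crtc1-/- (1.33, SE 0.27, adjusted p = 0.0424), and at 1.28 without replicate 2 it was not called (adjusted p = 0.0571). Hadhb, the thiolase subunit of the trifunctional protein that handles long chains, was at 83.9 and 94.7 against 282 and 303 CPM (1.71, SE 0.29, adjusted p = 0.0302). Hadha, its hydratase and dehydrogenase subunit, was at 164 and 170.1 against 371 and 557 CPM and did not pass (1.48, SE 0.36, adjusted p = 0.0611). Hadh, the dehydrogenase for shorter chains, had a log2 fold change of 1.28 (SE 0.31, adjusted p = 0.0604). Acaa2, the spiral gene with the highest mean FPKM in the controls of both tissues, was at 135 and 126 CPM against 182 and 674 CPM. Its replicates labelled Crtc1-/- were 3.71-fold apart, and the log2 fold change of 1.71 had an SE of 0.67 (adjusted p = 0.152).

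Hadha and Hadhb encode the subunits of 1 complex and lie head to head on chromosome 5 of GRCm38, Hadha on the minus strand from 30118304 to 30155162 and Hadhb on the plus strand from 30155248 to 30184593. Their start sites in RefSeq are 273 bp apart, and 228 bases are common to the promoter windows of both genes, each taken from 250 bases before to 50 bases after the start. The Hadhb window is shown because the 2 genes share it, with the shared bases in capitals (GRCm38.p6, chr5:30155003-30155302, plus strand). RefSeq windows were found for 32 of the 38 genes, 35 windows in all.
Hadhb: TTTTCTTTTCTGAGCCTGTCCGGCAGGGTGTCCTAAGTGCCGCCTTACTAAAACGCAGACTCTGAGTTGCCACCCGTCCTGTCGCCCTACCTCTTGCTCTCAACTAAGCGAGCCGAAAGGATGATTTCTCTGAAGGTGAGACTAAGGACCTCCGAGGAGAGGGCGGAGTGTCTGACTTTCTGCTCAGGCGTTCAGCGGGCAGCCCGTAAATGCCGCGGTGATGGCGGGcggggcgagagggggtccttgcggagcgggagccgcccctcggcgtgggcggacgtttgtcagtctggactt

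Windows were searched on both strands for a nuclear receptor hexamer, AGGTCA, a direct repeat of it spaced by 1 base, AGGNCANAGGNCA, the short CREB motif TGACG and the full site TGACGTCA, which contains it. The AGGTCA hexamer was found in 5 of the 35 windows (14.3%, against 16.3% of 32851 windows of all genes), those of Acadm, Acadvl, Cpt1a, Echs1 and Scp2. The TGACG motif was found in 11 (31.4%, against 20.8%). Neither the direct repeat (0.381% of all windows) nor the full site (1.79%) was found in a window of these genes. The median G and C content was 60.3% in their windows and 52.7% in all windows, and its part in the motif counts was not tested. Acadm, Acadvl and Echs1 rose in eWAT and hold the AGGTCA hexamer, and the windows of the first pair are printed as examples with the hexamer in capitals. That of Acadm holds it on the opposite strand together with TGACG, also on the opposite strand, which starts 21 bases before the start site. The windows lie on the minus strand of GRCm38.p6, at chr3:153944594-153944893 and chr11:70015379-70015678. A match describes the letters and does not show binding.
Acadm: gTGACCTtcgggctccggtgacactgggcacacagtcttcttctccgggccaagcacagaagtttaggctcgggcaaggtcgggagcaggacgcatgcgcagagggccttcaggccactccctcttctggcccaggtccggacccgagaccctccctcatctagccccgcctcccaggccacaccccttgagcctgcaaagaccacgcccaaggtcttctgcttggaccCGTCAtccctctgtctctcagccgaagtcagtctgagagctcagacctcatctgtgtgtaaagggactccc
Acadvl: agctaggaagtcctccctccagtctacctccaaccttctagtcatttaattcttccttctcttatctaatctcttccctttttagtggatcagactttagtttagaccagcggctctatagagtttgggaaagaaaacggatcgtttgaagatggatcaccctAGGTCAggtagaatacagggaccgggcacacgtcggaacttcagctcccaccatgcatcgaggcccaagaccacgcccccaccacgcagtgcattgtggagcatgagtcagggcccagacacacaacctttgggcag

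Among the enzymes that prepare unsaturated chains, the mitochondrial genes rose and the peroxisomal genes did not pass the test. Decr1, the mitochondrial dienoyl-CoA reductase, was at 41.4 and 38.1 CPM in control eWAT and 209 and 229.7 CPM in eWAT labelled Crtc1-/- (2.46, SE 0.28, adjusted p = 0.0178). Eci1, the mitochondrial enoyl-CoA isomerase, was at 72.4 and 62.1 against 179.7 and 267 CPM (1.73, SE 0.34, adjusted p = 0.0394). Both libraries labelled Crtc1-/- lay above both controls for both genes. Decr2, the peroxisomal reductase, was at 26.7 and 21.2 against 26.4 and 140.1 CPM, with only replicate 2 above the controls (1.80, SE 0.80, adjusted p = 0.190). Eci2, an isomerase found in peroxisomes, had a log2 fold change of 1.09 (SE 0.33, adjusted p = 0.0965).

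None of the 3 electron transfer genes passed the test. Etfb was at 149.8 and 105 CPM in control eWAT and 359.5 and 726 CPM in eWAT labelled Crtc1-/- (2.09, SE 0.49, adjusted p = 0.0567), and it was called without replicate 2 labelled Crtc1-/-. The other flavoprotein subunit, Etfa, had a log2 fold change of 1.21 (SE 0.40, adjusted p = 0.113), and Etfdh, the oxidoreductase that passes the electrons on to ubiquinone, 1.16 (SE 0.52, adjusted p = 0.193).

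In the peroxisomal spiral the replicates labelled Crtc1-/- lay far apart for most genes. Acaa1b, the thiolase with the highest FPKM of the 38 genes in liver, was at 53.6 and 18.6 CPM in control eWAT and 169 and 1626 CPM in eWAT labelled Crtc1-/-, a 9.61-fold gap between replicates (4.64, SE 1.29, adjusted p = 0.0799). Its paralog Acaa1a was at 98.8 and 79.8 against 137 and 311 CPM (1.33, SE 0.47, adjusted p = 0.128). The longest annotated transcripts of the 2 thiolases were 96% identical over 1450 aligned bases, so the counting tool may have divided reads between them. Ehhadh and Acox2 were singled out after their values were seen. Ehhadh, the bifunctional hydratase and dehydrogenase, was at 37.1 and 29.3 against 28.5 and 479.6 CPM (2.93, SE 1.27, adjusted p = 0.180). Acox2, which acts on bile acid precursors, was at 7.03 and 1.76 against 2.53 and 98.7 CPM (3.52, SE 1.71, adjusted p = 0.216). In both genes replicate 1 labelled Crtc1-/- was no higher than the higher control, and only replicate 2 stood out. Hsd17b4, the other bifunctional enzyme, had a log2 fold change of 1.65 (SE 0.42, adjusted p = 0.0667), and Scp2 had 1.05 (SE 0.64, adjusted p = 0.293).

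Acox3, the oxidase that begins the breakdown of branched chains, was the exception. It was at 200.4 and 288 CPM in control eWAT and 60.7 and 54.6 CPM in eWAT labelled Crtc1-/-, with both replicates below both controls. The log2 fold change was -2.08 (SE 0.33, adjusted p = 0.0272), and -2.05 without replicate 2 labelled Crtc1-/- (adjusted p = 0.0395). In liver it was at only 8.52 to 22.2 CPM. The epididymis markers fell in the same libraries, from 9.13% and 10.5% of the counts to 0.00256% and 0.00132%, and their part in the level of Acox3 was not tested. Its promoter window is shown because it is the gene that fell, and that of Ehhadh because its replicates labelled Crtc1-/- differed 16.8-fold. The Acox3 window holds TGACG on the strand of the gene 83 bases before the start, and that of Ehhadh 179 bases before it (capitals). The windows lie at chr5:35582784-35583083 on the plus strand and chr16:21787785-21788084 on the minus strand of GRCm38.p6.
Acox3: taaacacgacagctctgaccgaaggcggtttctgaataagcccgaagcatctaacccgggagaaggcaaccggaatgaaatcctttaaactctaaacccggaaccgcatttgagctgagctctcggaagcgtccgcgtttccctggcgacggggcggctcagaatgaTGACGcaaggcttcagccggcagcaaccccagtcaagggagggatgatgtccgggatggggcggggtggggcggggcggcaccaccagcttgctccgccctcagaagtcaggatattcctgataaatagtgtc
Ehhadh: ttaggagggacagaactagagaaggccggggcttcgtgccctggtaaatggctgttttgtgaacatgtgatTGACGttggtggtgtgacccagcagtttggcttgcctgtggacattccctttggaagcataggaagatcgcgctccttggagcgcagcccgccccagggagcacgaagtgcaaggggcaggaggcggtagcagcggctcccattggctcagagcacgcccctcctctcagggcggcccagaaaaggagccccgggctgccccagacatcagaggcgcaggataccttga

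The genes for entry into and exit from peroxisomes were no more uniform. Abcd3, a transporter of acyl-CoA into peroxisomes, was at 53.4 and 89.8 CPM in control eWAT and 24.6 and 125 CPM in eWAT labelled Crtc1-/- (0.06, SE 0.79, adjusted p = 0.964). Crot, which converts shortened chains to carnitine esters for export, was at 33.6 and 45.3 against 12.5 and 110.5 CPM (0.64, SE 0.97, adjusted p = 0.663). In both genes replicate 1 labelled Crtc1-/- was below the controls and replicate 2 above them. Abcd2, a transporter with a preference for very-long-chain acyl-CoA, was above both controls in both replicates (2.45, SE 0.63, adjusted p = 0.0685). Of the thioesterases, which cleave acyl-CoA back to the free acid, cytosolic Acot1 was at 39.5 and 35.7 against 21.2 and 76.4 CPM (0.38, SE 0.63, adjusted p = 0.696). Mitochondrial Acot2 was at 17.7 and 21.7 against 38.2 and 35.0 CPM (0.90, SE 0.31, adjusted p = 0.123). The transcripts of this pair were 94.3% identical over 1330 aligned bases, and reads may have been divided between them.

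The high hepatocyte markers of replicate 2 labelled Crtc1-/- were set beside each gene. At the median hepatocyte marker ratio, liver RNA would give between 13.9% (Abcd2) and 106% (Acox2) of a gene's count in that library, with a median of 69.8% for the peroxisomal genes and 50.9% for the mitochondrial genes. The shares were 93.3% for Decr2, 92.5% for Crot, 75.5% for Ehhadh and 71.8% for Acaa1b. They were 25.2% for Hadhb, 19.3% for Crat and 14.2% for Acox3. With that share subtracted from the counts, the 12 genes called in eWAT were still called, with log2 fold changes of 2.59 for Crat, 2.39 for Decr1, 2.31 for Cpt2 and -1.87 for Acox3. In total 16 genes then rose and 4 fell, with a median of 1.13. In that fit 3078 of all 15424 genes were called, 1789 of them higher. The adipocyte and endothelial markers, higher in both libraries labelled Crtc1-/-, were not subtracted, and their part in the rise of the mitochondrial genes was not tested.

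**Figure D3:**
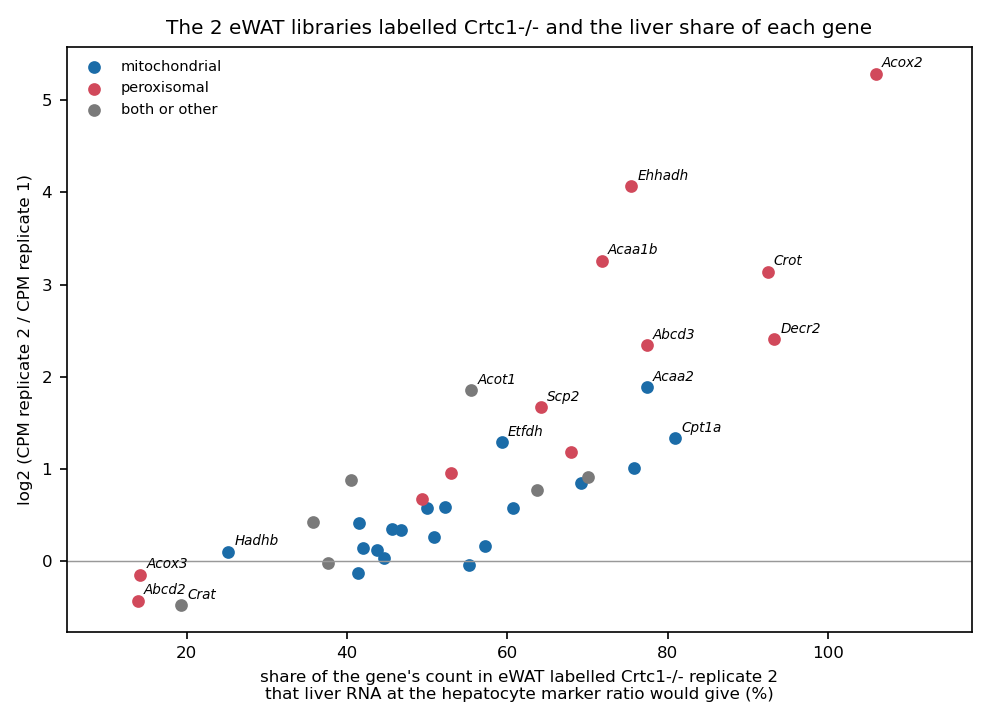
For each of the 38 genes, the percentage of its count in replicate 2 of eWAT labelled Crtc1-/- that liver RNA at the hepatocyte marker ratio would give (x axis), against the log2 ratio of CPM between replicates 2 and 1 (y axis). Both axes hold the replicate 2 value, so no correlation is given. Acox2, Crot, Decr2 and Ehhadh are at the upper right, and Abcd2, Acox3 and Crat at the lower left.

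In liver the beta oxidation genes leaned the other way, and none passed the test. Of the 38 genes 33 had negative log2 fold changes, labelled Crtc1-/- over Crtc1+/+, with a median of -0.52 against 0.00 for all 11707 genes tested. By the quasi-likelihood test of edgeR 0 genes were called at an adjusted p under 0.05, against 0.0854% of all genes. An unadjusted p under 0.05 was found for 14, 12 of them lower, and for 2029 of all 11707 genes, 890 of them lower. At the threshold of the study 4 genes were lower and 0 higher, against 1.43% and 2.84% of all genes. Both libraries labelled Crtc1-/- lay below both controls for 24 genes and above them for 3, against 26.4% and 25.8% of all genes. Other lists moved in the same libraries. Of 15 hepatocyte markers 10 had negative values (median -0.32), as did 14 of 16 peroxins (median -0.38). Endothelial markers held 0.00346% and 0.00289% of the counts in control liver and 0.00466% and 0.00486% in liver labelled Crtc1-/-, and epididymis markers 2.28e-04% and 2.15e-04% against 0.00939% and 0.00130%. Their part in the lower values was not tested. DESeq2 called 5 genes, all lower, namely Cpt2, Acot1, Ehhadh, Acad11 and Hadhb. The median of the 38 genes was -0.54 without replicate 1 labelled Crtc1-/- and -0.41 without replicate 2. It was -0.50 and -0.48 without replicate 1 or 2 labelled Crtc1+/+.

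The 4 liver genes past the threshold of the study were Acot1, Ehhadh, Acad11 and Hadhb. Acot1 was at 244 and 134 CPM in control liver and 58.0 and 72.3 CPM in liver labelled Crtc1-/- (-1.54, SE 0.33, adjusted p = 0.121). Ehhadh was at 1221 and 1062 against 539.7 and 574 CPM (-1.03, SE 0.25, adjusted p = 0.134). The groups of both genes stood clear of each other, but the adjusted p missed the threshold. Acad11 was at 168 and 219 against 111 and 80.1 CPM (-1.02, SE 0.28, adjusted p = 0.162), and Hadhb at 223 and 250.5 against 136 and 99.2 CPM (-1.01, SE 0.27, adjusted p = 0.159). Hadha, the partner of Hadhb, was at 657 and 676 against 428 and 467 CPM (-0.57, SE 0.24, adjusted p = 0.274). The carnitine shuttle gene Cpt2 was at 349.5 and 318 against 199.7 and 159.7 CPM (-0.89, SE 0.26, adjusted p = 0.170).

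Acaa1b, Acaa2, Acsl1 and Crot each had the highest mean FPKM of their role in liver. Acaa1b was at 2785 and 2241 CPM against 1785 and 1809 CPM (-0.48, SE 0.25, adjusted p = 0.349). Its paralog Acaa1a was at 369 and 311 against 364 and 287 CPM (-0.06, SE 0.26, adjusted p = 0.922). Acaa2 was at 1084 and 1054 against 867 and 739.7 CPM (-0.41, SE 0.25, adjusted p = 0.409), Acsl1 at 582 and 836 against 522 and 249 CPM (-0.88, SE 0.37, adjusted p = 0.267), and Crot at 221 and 237 against 207 and 109 CPM (-0.54, SE 0.32, adjusted p = 0.411). For these 3 genes the libraries labelled Crtc1-/- were below both controls, while those of Acaa1a overlapped with them. Etfb and Acsl4 pointed up, Etfb from 613 and 509.8 to 766 and 924 CPM (0.59, SE 0.26, adjusted p = 0.280) and Acsl4 from 5.29 and 6.87 to 9.28 and 14.6 CPM (0.97, SE 0.32, adjusted p = 0.207). Eci1 was close to level, at 217 and 223 against 251 and 247 CPM (0.18, SE 0.24, adjusted p = 0.728). Acot2, the paralog of Acot1, was at 40.4 and 18.3 against 15.5 and 28.9 CPM (-0.40, SE 0.41, adjusted p = 0.632). Cpt1b was at 8.68 and 2.94 against 3.67 and 6.77 CPM in libraries where skeletal muscle markers held 0.0497%, 8.99e-04%, 0.0639% and 0.0466% of the counts in the same order.

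**Figure D4:**
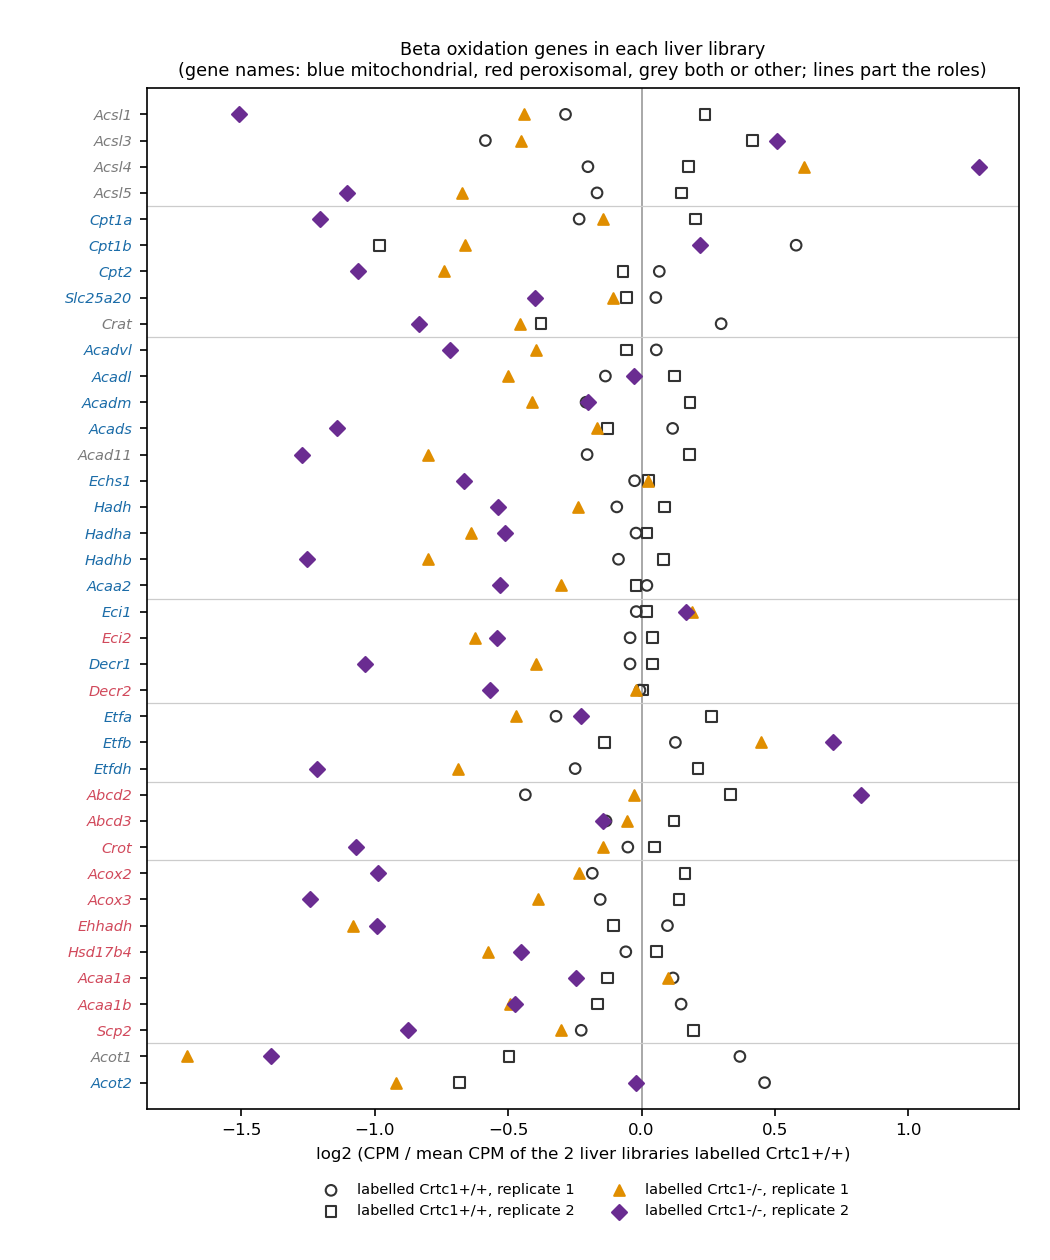
Level of each of the 38 genes in the 4 liver libraries, as log2 of CPM over the mean CPM of the 2 libraries labelled Crtc1+/+ (x axis), grouped by role. For 24 genes both libraries labelled Crtc1-/- lie left of both controls, among them Acot1, at 58.0 and 72.3 CPM against 244 and 134 CPM.

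Whether the genotype difference itself differed between the tissues was tested with an interaction term over all 8 libraries. For 35 of the 38 genes the log2 fold change was higher in eWAT than in liver, with a median difference of 1.91 against -0.21 for all genes. In edgeR's quasi-likelihood test 8 of the 38 had a higher change in eWAT and 1 a lower one at an adjusted p under 0.05, against 3.78% and 3.16% of all genes. The 8 were Cpt2 (difference 3.26, SE 0.48, adjusted p = 0.0141), Decr1 (3.07, SE 0.48), Crat (2.96, SE 0.51), Acads (2.88, SE 0.56), Acad11 (2.83, SE 0.63), Hadhb (2.65, SE 0.45), Slc25a20 (2.19, SE 0.41) and Acadl (2.09, SE 0.46). For Acsl4 the difference was -3.32 (SE 0.70, adjusted p = 0.0380). None of the 12 peroxisomal genes was called in this fit, whereas DESeq2 called Hsd17b4, Eci2, Ehhadh and Acaa1b higher and limma called Acox3 lower. The 9 genes were also called without replicate 2 of eWAT labelled Crtc1-/-, with a median over the 38 genes of 1.31. Leaving out replicate 1 of that group gave 25 higher and 1 lower, and the replicate number as a block gave 12 called, adding Acadm, Etfa and Acsl3. The calls fell to Acsl4 alone without replicate 1 of eWAT labelled Crtc1+/+, to Acads and Decr1 without replicate 1 of liver labelled Crtc1-/-, and to 0 without replicate 2 of eWAT labelled Crtc1+/+, either liver library labelled Crtc1+/+ or replicate 2 of liver labelled Crtc1-/-.

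**Figure D5:**
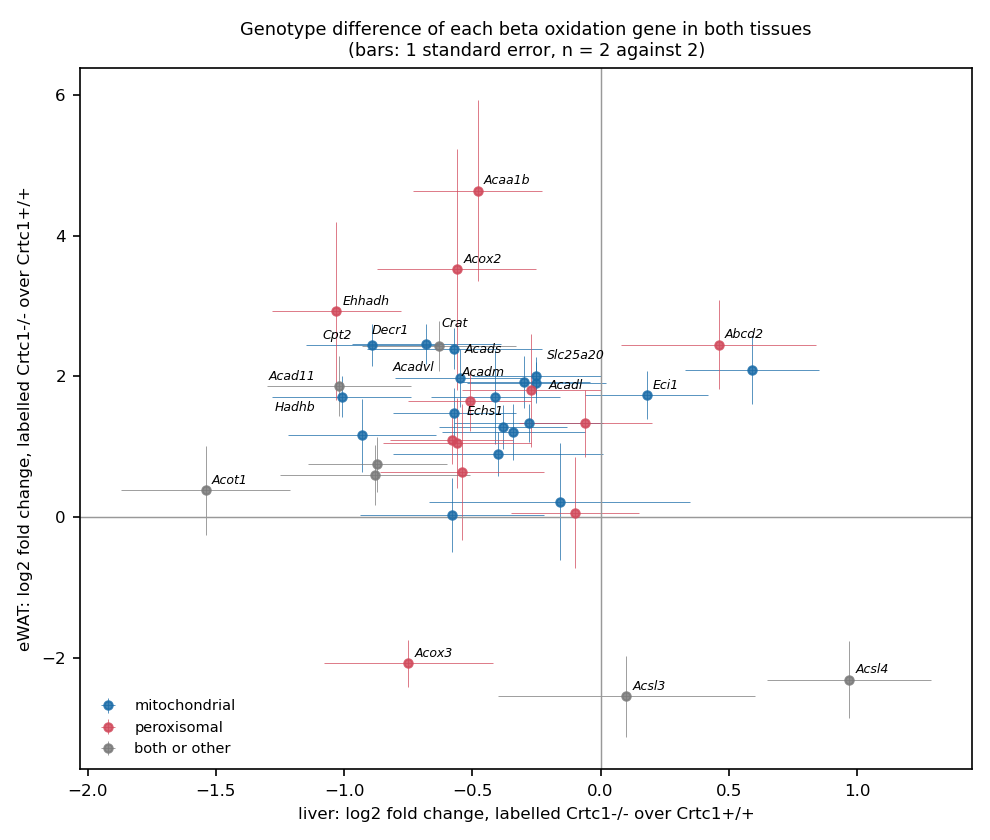
Log2 fold change of each of the 38 genes, labelled Crtc1-/- over Crtc1+/+, in liver (x axis) and eWAT (y axis), with bars of 1 standard error (n = 2 against 2). Most genes lie in the upper left, with positive values in eWAT and negative values in liver, and Acsl4 lies at -2.31 in eWAT and 0.97 in liver.

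Within the label Crtc1-/-, the tissues lay closer together. Of the 38 genes 9 were lower in eWAT than in liver at an adjusted p under 0.05 and 0 were higher, against 8.89% and 18.9% of all genes. An unadjusted p under 0.05 was found for 24, 23 of them lower, and for 6765 of all 15587 genes, 2604 of them lower. The median log2 fold change was -1.20, against 0.20 for all genes. Those called were Acsl5, Cpt1a, Slc25a20, Acadvl, Eci1, Eci2, Decr2, Etfb and Acaa1a. Hadhb stood at 0.02 (SE 0.31) and Crat at 0.70 (SE 0.36), where they had been -2.62 (SE 0.33) and -2.26 (SE 0.37) within the label Crtc1+/+. Without replicate 2 of eWAT labelled Crtc1-/-, the library with the hepatocyte markers, 26 genes were lower and the median was -1.68. Without its replicate 1 only Decr2 was lower, without either liver library labelled Crtc1-/- 0 were called, and with library totals Crat, Abcd2, Acox3 and Hadhb were higher and none was lower.

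Genes that work beside these enzymes were followed in 3 lists. As stated, 6.65% of all genes rose in eWAT. Of 15 other mitochondrial acyl-CoA genes 5 rose there and none fell (median 1.20), and of these the largest changes were those of the medium-chain synthetase Acsf2 (2.64, SE 0.52, adjusted p = 0.0401), the malonyl-CoA decarboxylase Mlycd (2.36, SE 0.33, adjusted p = 0.0230) and the dienoyl-CoA isomerase Ech1 (2.21, SE 0.37, adjusted p = 0.0303). Ech1 was at 215 and 157 CPM in control eWAT and 828 and 891 CPM in eWAT labelled Crtc1-/-. Of 16 peroxins, which build and import peroxisomes, 3 rose, namely Pex16 (2.48, SE 0.32), Pex19 (2.0, SE 0.30) and Pex14 (1.41, SE 0.26), with a median of 0.65. Pex19, the receptor for peroxisomal membrane proteins, was at 96.9 and 95.3 against 406 and 359.8 CPM, so that both replicates labelled Crtc1-/- were above both controls.

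Of 7 regulators 2 rose in eWAT, against 6.65% of all genes. Acacb, whose product makes the malonyl-CoA that inhibits the carnitine entry step, was at 21.9 and 35.2 CPM in control eWAT and 342 and 435 CPM in eWAT labelled Crtc1-/- (3.77, SE 0.41, adjusted p = 0.0173). Rxra, the partner receptor of the PPAR family, was at 82.2 and 73.1 against 325 and 451 CPM (2.32, SE 0.34, adjusted p = 0.0251). Ppara, the receptor that drives fatty acid oxidation in liver, was at 7.03 and 6.95 against 6.16 and 50.8 CPM, with only replicate 2 above the controls (2.02, SE 0.99, adjusted p = 0.218). In liver none of the genes on these 3 lists was called. Brown fat markers held at most 0.00204% of the counts in any library.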

How the data were processed

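Total RNA of liver and eWAT was sequenced, with 2 libraries for each tissue and labelled genotype. The authors deposited a table of estimated counts per gene and a table of FPKM, which are scaled to library size and transcript length. The submitters' processing notes name HISAT, Bowtie2 and the genome build GRCm38.p6, and the counting tool is not given in the sources used here. Between 5.44% and 9.98% of the values in the count table were not whole, so the estimated counts were rounded before testing. Reads shared by near-identical paralogs are divided by such estimates, which makes those genes less certain.

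Genes were filtered with filterByExpr, scaled by TMM and tested with the quasi-likelihood test of edgeR 4.0.16 in R 4.3.3 on the whole table, p-values being adjusted by Benjamini-Hochberg across every gene in the fit. Each tissue was fitted alone for the labelled genotype, and all 8 libraries together for the comparison of tissues and the interaction. Standard errors were obtained by dividing the size of the log2 fold change by √F. CPM values are on the TMM scale of the tissue. TMM factors ran from 0.818 to 1.14 in eWAT and from 0.974 to 1.04 in liver. How many changes of the size seen here edgeR would miss was not tested for either tissue or the interaction. A gene not called is therefore not shown to be unchanged. In eWAT DESeq2 called 4620 of 15391 genes at an adjusted p under 0.05, against 1875 with edgeR. The share of false calls in either was not tested. Alternatives were DESeq2 1.42.0, limma 3.58.1 on quantile-normalized log2(FPKM + 1), no filter, other scalings, the replicate number as a block, each library left out in turn, 1 fit of all libraries and subtraction of liver RNA. Tables and plots were made with Python 3.11.15, numpy 2.4.6, pandas 2.3.3 and matplotlib 3.10.9.

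The 38 genes and all gene lists were chosen with earlier results of these data known. Values by library, in eWAT, liver or both, are given for genes called in a genotype comparison or the interaction. The same holds for the gene with the highest mean FPKM of each role in each tissue and for close paralogs. For several called genes, Decr1 and Slc25a20 among them, liver values are not printed. From the other lists at most 3 called genes were named, by size of change. A further list, of other peroxisomal lipid genes, is not reported here. Further genes given with values were chosen after their values were seen. Gene positions are from GENCODE M21 (GRCm38) and promoter windows from RefSeq (GRCm38.p6).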

Additional observations from a re-analysis of the deposited data

Results flagged for a closer look

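For 9 genes the difference between the labelled genotypes itself differed between eWAT and liver by the interaction term of edgeR's quasi-likelihood test, at an adjusted p under 0.05. The log2 fold change in eWAT minus that in liver was 3.26 for Cpt2, 3.07 for Decr1, 2.96 for Crat, 2.88 for Acads, 2.83 for Acad11, 2.65 for Hadhb, 2.19 for Slc25a20 and 2.09 for Acadl. For Acsl4 it was -3.32. Whether the same number marks the same mouse in both tissues is not stated in the sources used here. The part of the epididymis, adipocyte and hepatocyte markers, which differed among the eWAT libraries, was not tested.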

How the results depend on the processing

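The calls rested on 2 libraries a group, and the sign of the medians held except under adipocyte marker scaling in eWAT (-1.77). There the median of all genes was -3.49, and the 38 genes lay 1.72 above it, against 1.61 in the main fit. In eWAT 12 genes were called, against 28 with DESeq2, 21 with all 8 libraries in 1 fit, 20 with adipocyte marker scaling and 20 with the liver share subtracted. The eWAT median of 1.56 was 1.0 with limma and 1.13 with the liver share subtracted. In liver 0 genes were called, against 5 with DESeq2 and 2 (Acot1 and Ehhadh) without a filter. The 4 liver genes past the threshold of the study became 2 with limma, 1 with library totals, 1 with upper-quartile scaling and 0 with all libraries in 1 fit. The interaction, with 9 genes, gave 20 with DESeq2 and 15 with limma, and its median of 1.91 was 1.41 with limma and 1.54 with library totals. Between tissues within the label Crtc1+/+ the median of -3.27 was -3.41 with DESeq2, -2.29 with limma, -1.87 with library totals and -3.07 with upper-quartile scaling. Within the label Crtc1-/- the 9 genes called became 26 with DESeq2, 5 with limma, 4 with library totals and 17 with upper-quartile scaling, and the median of -1.20 became -0.63 with limma and -0.13 with library totals. The cause of these shifts was not tested.

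With each library left out in turn, the genes called ranged from 0 to 27 in eWAT, 0 to 16 in liver, 0 to 26 for the interaction and 0 to 26 between tissues within the label Crtc1-/-. Those past the threshold of the study ranged from 1 to 27 in eWAT and 0 to 13 in liver. The medians ranged from 0.93 to 1.79 in eWAT, 1.31 to 2.28 for the interaction and -1.68 to -0.93 between tissues within the label Crtc1-/-. Where an arm held 1 library, that library was assumed to vary like the others.

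With the replicate number as a block, 0 genes were called in eWAT, where no gene in the whole table passed. Between tissues within the label Crtc1-/- 15 were called. Deviations of same-numbered libraries correlated between -0.04 and 0.22, and the sources do not state whether a number marks the same mouse in both tissues. The block raised the interaction calls from 9 to 12. For single genes called, the call was lost without a turn in 50 of 156 values in eWAT and 55 of 126 for the interaction. The sign turned for 11 genes in eWAT, under adipocyte marker scaling, which was tried for single genes after the data were seen. That scaling lowered the whole table, so the turn does not single out these genes. The values there were -0.93 for Cpt2, -1.40 for Slc25a20, -1.11 for Crat, -1.38 for Acadvl, -1.45 for Acadl, -1.35 for Acadm, -1.09 for Acads, -2.07 for Echs1, -1.67 for Hadhb, -1.65 for Eci1 and -0.96 for Decr1, where the median of all genes was -3.49. Every one of the 38 genes stood at 1.34 CPM or more in every library, where 3 counts are 0.152 to 0.181 CPM.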
